A study of Macaca mulatta with 7 samples.

Results

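The genes described here are 10 lipid handling genes of phagocytes, APOE, APOC1, LPL, ABCA1, ABCG1, PLIN2, PPARG, FABP5, SOAT1 and SPP1, out of 28966 symbols or identifiers counted in spinal cord nuclei of the rhesus monkey (Macaca mulatta). They were a fixed list matched by symbol, which found 9 of them, and the list was chosen with earlier results of these data known. APOC1 was listed by its identifier alone (ENSMMUG00000028749) and was named from the reference table. Single-nucleus RNA-seq counts the RNA of single nuclei as unique molecular identifiers (UMIs), and 1 library was made for each of 7 groups, with 63730 nuclei kept in all. Untreated cord gave 3 libraries, from cervical, thoracic and lumbar segments at an age of 5 years. The other 4 came from lumbar cord after a complete injury of the thoracic cord. They were taken after 7 days (7 dpi, days post injury), 14 and 30 days, and 6 months (6 mpi), from animals aged 7, 7, 6 and 6 years. All animals were adult. By the study's methods they were female, the lumbar tissue was outside the lesion, and 1 animal per group was sequenced, so the 3 intact segments came from 1 animal. Time, animal, age and library preparation therefore cannot be told apart. No test between groups was possible with 1 library each, and every interval below is at 95% and covers counting error only.

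Phagocytes that clear myelin debris take up large amounts of lipid, break it down in lysosomes, and then either export cholesterol or store it as esters in lipid droplets. APOE and APOC1 are apolipoproteins of lipoprotein particles, and LPL is the lipase that frees fatty acids from them. ABCA1 and ABCG1 are transporters that hand cholesterol to particles outside the cell. SOAT1 esterifies cholesterol for storage, PLIN2 coats lipid droplets, FABP5 carries fatty acids within the cell, and PPARG is a nuclear receptor activated by fatty acid derivatives. SPP1 encodes osteopontin, a secreted protein of activated microglia and lipid-laden macrophages. In nervous tissue, astrocytes are the other main source of APOE.

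In the RefSeq annotation of Mmul_10, the build of the deposited counts, APOE (chromosome 19, 44944814 to 44948739) and APOC1 (44952532 to 44957687) are neighbours on the plus strand, 3793 bases apart. PPARG lies on chromosome 2 (143655500 to 143804531, plus strand), ABCA1 on chromosome 15 (37954896 to 38101949, plus strand) and ABCG1 on chromosome 3 (4372650 to 4456614, minus strand). SOAT1 lies on chromosome 1 (36484507 to 36548220), SPP1 on chromosome 5 (86367764 to 86375538), and LPL (20089661 to 20118617) and FABP5 (81755423 to 81759884) on chromosome 8, all on the plus strand. Of these 9 genes, ABCA1 was the one that overlapped another coding gene, NIPSNAP3B on the opposite strand. The 250 bases before each of the 9 gene starts were searched on both strands for a TATA box (letters TATAAA), for an E-box (letters CACGTG), and for the nuclear receptor core AGGTCA alone. The core was also searched as a direct repeat with 4 bases (DR4) or 1 base (DR1) between its copies. CACGTG, which reads the same on both strands, stood before APOC1 and ABCA1 and in 6.45% of 20769 such windows over all coding genes. AGGTCA stood before LPL (12.9% of all windows) and TATAAA before FABP5 (9.85%), and neither repeat stood before any of the 9. The windows of APOC1 (chr19:44952282-44952531) and ABCA1 (chr15:37954646-37954895), both called higher at every time below, are shown 5′ to 3′ on the plus strand with CACGTG in capitals. These matches are letters in a window and were not tested as binding sites.
APOC1: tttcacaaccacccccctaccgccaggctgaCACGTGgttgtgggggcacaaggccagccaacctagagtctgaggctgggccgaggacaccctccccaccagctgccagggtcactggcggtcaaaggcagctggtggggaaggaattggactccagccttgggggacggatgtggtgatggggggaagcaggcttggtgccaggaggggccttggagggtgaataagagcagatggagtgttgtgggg
ABCA1: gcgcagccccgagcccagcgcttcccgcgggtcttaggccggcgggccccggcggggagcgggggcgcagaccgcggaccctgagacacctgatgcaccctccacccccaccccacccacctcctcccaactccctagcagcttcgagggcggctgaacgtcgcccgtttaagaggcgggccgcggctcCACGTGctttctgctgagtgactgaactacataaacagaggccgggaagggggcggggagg

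Clusters of nuclei were named from class markers, and the 10 genes were left out of the variable genes that built the clusters. Microglia-like nuclei numbered 1641 in intact cervical, 2516 in thoracic and 2084 in lumbar cord, and 3444, 4673, 3883 and 2295 at 7, 14, 30 dpi and 6 mpi. All 10 microglia markers, such as CSF1R and P2RY12, were detected in this class in each library. Their summed level was 8508 to 8789 UMIs per 1000000 UMIs of the class (CPM) in intact cord and 5905 to 10474 CPM after injury, lowest at 6 mpi. Microglia-like nuclei of the 6 mpi library were also the shallowest, with a median of 2383 UMIs against 3235 to 5809 in the other libraries. Their mean share of mitochondrial UMIs was 0.0693%, against 0.0108 to 0.0259% in the other libraries. Markers of perivascular macrophages, such as MRC1 and CD163, summed to 1011 to 1691 CPM in intact and 246 to 665 CPM in injured libraries, with 6 of 6 detected in each. MRC1 led the largest microglia-like cluster of intact cord and CD163 led another, both described below. This sum is therefore not a measure of perivascular macrophages alone. Markers of blood monocytes and neutrophils summed to 17.8 to 26.3 CPM in intact and 5.44 to 18.5 CPM in injured libraries, with 2 to 5 of 6 detected and FCN1 or S100A8 at 0 in 7 of 7 libraries. Endothelial markers summed to 807 to 867 CPM in 6 libraries and to 1529 CPM at 7 dpi. Over the 7 libraries, oligodendrocyte markers summed to 963 to 1211 CPM in microglia-like nuclei and astrocyte markers to 465 to 1033 CPM. In their own classes these sums were 12172 to 13600 CPM and 5465 to 9935 CPM. The part of these other cells in the values below, among them those of ABCA1, APOE and LPL, was not tested. Libraries of each pair shared 9 to 29 cell barcodes.

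In microglia-like nuclei most of the 10 genes lay higher in the cord below the injury than in intact cord, and the number grew up to 30 dpi. A gene was called higher when its CPM was at least 2-fold that of intact lumbar cord and above all 3 intact segments, and lower by the mirror rule. All 10 passed the filter of 100 UMIs over the 7 libraries of the class, although ABCG1 had 11 to 14 UMIs per intact library and passed through the injured ones. At 7 dpi 5 of 10 were called higher and 0 lower, where 10.7% and 7.83% of the 13398 genes tested were. At 14 dpi 8 were called higher and 0 lower (background 7.5% and 6.29%). At 30 dpi 9 were higher and 0 lower (9.61% and 9.41%), and at 6 mpi 7 were higher and 1, LPL, was lower (14.9% and 5.74%). The median log2 ratio of the 10 to intact lumbar cord was 1.12, 1.86, 2.58 and 2.69 at the 4 times. The median over all genes tested was 0.04, -0.08, -0.07 and 0.21, and with ratios centred on it the same genes were called at each time. APOE, APOC1, ABCA1, PPARG and FABP5 were called higher at all 4 times, and 8 of the 10 lay above the intact range at all 4 times. By the same rule 6, 5, 5 and 7 of 10 were called higher in oligodendrocyte-like nuclei (background 11.1%, 6.31%, 6.01% and 11.5%). In astrocyte-like nuclei 4, 2, 5 and 6 of 9 tested were (15%, 5.67%, 6.82% and 12.7%). In oligodendrocyte precursor-like nuclei 3, 2, 2 and 3 of 9 were (6.4%, 3.41%, 3.19% and 9.02%). In neuron-like nuclei 1, 2, 4 and 2 of 10 were (5.41%, 4.31%, 4.27% and 6.01%). Higher calls were not particular to microglia-like nuclei, but some of those in other classes started from few UMIs. APOC1 had 3 to 30 UMIs per intact library in each of these other classes and passed the filter there through the injured libraries. So did PPARG (13 to 21) and FABP5 (10 to 21) in oligodendrocyte-like nuclei, and LPL (23 to 37) in oligodendrocyte precursor-like nuclei. These counts are therefore no support for the list, and the part of free RNA in them was not tested.

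**Figure D1:**
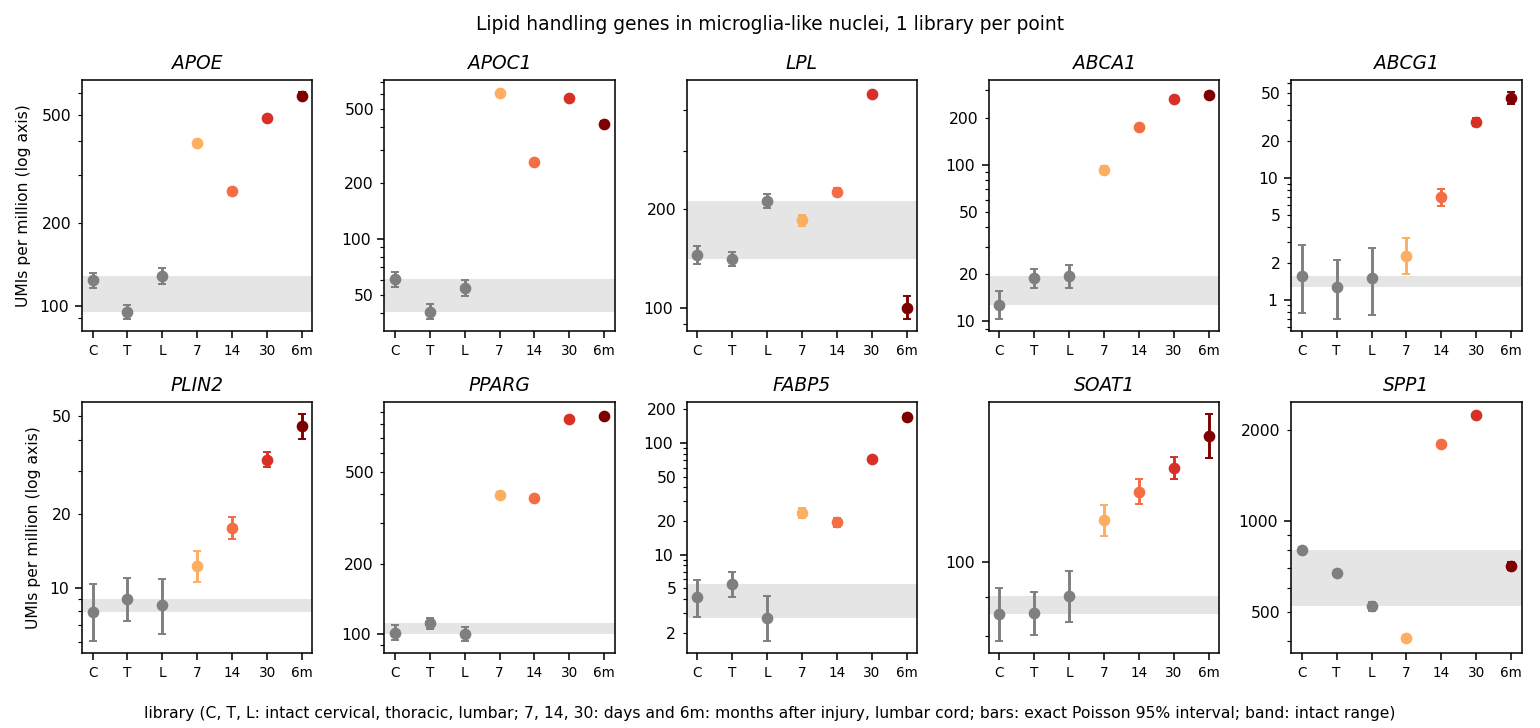
Level of each gene in microglia-like nuclei in CPM (log axis, 1 panel per gene with its own range) in intact cervical (C), thoracic (T) and lumbar (L) cord and in lumbar cord 7, 14 and 30 days and 6 months (6m) after injury. Points are single libraries, bars are exact Poisson 95% intervals and the grey band is the range of the 3 intact libraries, below all 4 injured libraries for 8 genes and not for LPL and SPP1.

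APOE stood at 124, 94.7 and 128 CPM in intact cervical, thoracic and lumbar cord and at 395, 262, 486 and 587 CPM at 7, 14, 30 dpi and 6 mpi. Every injured library was above every intact one, and 14 dpi was the lowest of the 4. The log2 ratio to intact lumbar cord was 1.62 (1.52 to 1.72), 1.03 (0.93 to 1.13), 1.92 (1.83 to 2.02) and 2.19 (2.09 to 2.30). The ratio at 14 dpi was 2.04-fold, at the edge of the call. APOC1 went from 60.3, 40.4 and 54.1 CPM in intact cord to 608, 257, 570.2 and 416 CPM. Its ratio to intact lumbar cord was 11.2-fold at 7 dpi and 4.75-fold, 10.5-fold and 7.69-fold later, so that, unlike the other genes, it stood highest at the first time. At an equal depth of 1000 UMIs per nucleus, 3.50 to 5.36% of intact microglia-like nuclei and 17.6 to 35.7% of injured ones held an APOC1 UMI. The share in neuron-like nuclei, taken as lacking the gene, was 0% in the 3 intact libraries, with upper bounds of 0.131 to 0.456%, and 0.569 to 1.17% in the injured ones. Median depth before thinning was 2383 to 5809 UMIs in microglia-like and 21256 to 39053 in neuron-like nuclei.

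LPL, the lipase, did not follow the apolipoproteins. It stood at 146, 141 and 212 CPM in intact cord and at 185, 226, 447 and 100.5 CPM in the injured libraries. The 7 dpi library lay within the intact range, 14 dpi just above it, 30 dpi far above it and 6 mpi below it. The log2 ratio was 1.08 (1.00 to 1.15) at 30 dpi and -1.08 (-1.21 to -0.94) at 6 mpi. Intact lumbar cord was itself the highest intact segment, and against cervical or thoracic cord LPL was not called lower at 6 mpi. The share of nuclei with an LPL UMI at equal depth was 9.06 to 11.8% in intact cord, 24.1% at 30 dpi and 6.62% at 6 mpi.

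Both cholesterol transporters lay higher at each later time, ABCA1 being called at all 4 and ABCG1 from 14 dpi on. ABCA1 stood at 12.8, 18.9 and 19.4 CPM in intact cord and at 92.9, 175, 262 and 279 CPM after injury. Every later library was above the one before it, with the last 2 close together. Its ratio to intact lumbar cord was 4.80-fold, 9.02-fold, 13.5-fold and 14.4-fold at the 4 times. ABCG1 was near the limit of detection in intact cord, at 1.57 and 1.26 CPM in the cervical and thoracic segments and between them in the lumbar one. It reached 2.31 CPM (1.62 to 3.20) at 7 dpi, whose interval overlapped the intact ones, and then 6.93, 29.0 and 45.6 CPM. Its log2 ratio was 4.27 (3.42 to 5.28) at 30 dpi and 4.93 (4.06 to 5.95) at 6 mpi, with 735 and 277 UMIs against 11 in intact lumbar cord. In 30 dpi and 6 mpi nuclei at equal depth ABCG1 was found in 2.40% and 4.10%, against 0.119 to 0.244% in intact cord. The same shares in neuron-like nuclei were 3.45% and 4.12%, so ABCG1 was not particular to the microglia-like class.

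Of the storage genes, PLIN2 lay at 7.98, 9.01 and 8.46 CPM in intact cord and at 12.3, 17.5, 33.3 and 45.6 CPM after injury. It was called from 14 dpi on, at 2.07-fold, 3.94-fold and 5.40-fold. SOAT1 lay at 85.5, 85.7 and 90.3 CPM in intact cord and at 113, 124, 133 and 146 CPM after injury. All 4 injured libraries were above the intact range, but the ratio to intact lumbar cord stayed at 1.26-fold, 1.37-fold, 1.47-fold and 1.62-fold, below the 2-fold rule. FABP5, the fatty acid carrier, stood at 4.13, 5.41 and 2.73 CPM in intact cord, where it rested on 20 to 60 UMIs per library. It reached 23.5, 19.4, 71.6 and 173 CPM after injury, and the 6 mpi library was the highest. Its log2 ratio of 5.98 (5.35 to 6.70) at 6 mpi was the largest of the 10, and it was 5.00 against thoracic cord, the highest intact segment.

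PPARG, the nuclear receptor, moved in 2 steps. It stood at 101, 111 and 100.1 CPM in intact cord, at 398 and 383 CPM at 7 and 14 dpi, and at 838 and 863 CPM at 30 dpi and 6 mpi. Its log2 ratio to intact lumbar cord was 1.99 (1.88 to 2.10), 1.94 (1.83 to 2.05), 3.07 (2.96 to 3.17) and 3.11, the last of these 8.62-fold. PPARG was found in 7.29 to 9.02% of intact microglia-like nuclei at equal depth and in 25.6%, 23.7%, 38.9% and 40.7% of injured ones, with 1.23 to 2.68% in neuron-like nuclei. SPP1, the osteopontin gene, was called at 14 and 30 dpi. Its intact level was 801, 673 and 521 CPM, and the injured libraries stood at 409, 1797, 2239 and 707 CPM. The 7 dpi library was below all 3 intact ones, 14 and 30 dpi were far above them, and 6 mpi was among them. In intact lumbar cord 314 of the 2084 nuclei, a cluster described below with IL1B and CXCL8, held 1999 of its SPP1 UMIs at 1726 CPM. The largest cluster there stood at 288 CPM, below the 398 CPM of the main 7 dpi cluster. In intact cervical and thoracic cord the same largest cluster stood at 635 and 512 CPM, above the main 7 dpi cluster. The log2 ratio of SPP1 to intact lumbar cord was -0.35 (-0.41 to -0.29), 1.78 (1.74 to 1.83), 2.10 (2.05 to 2.15) and 0.44 (0.38 to 0.50).

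The genes differed in how far the microglia-like class set them apart from other classes. For APOC1, microglia-like nuclei held 83.3 to 86.1% of its UMIs in intact cord and 85.0 to 93.0% in injured cord. LPL, PLIN2, PPARG, SOAT1 and SPP1 were also higher in microglia-like than in oligodendrocyte-, oligodendrocyte precursor (OPC)-, astrocyte- and neuron-like nuclei in every library, although PLIN2 in intact cord by little (7.98 CPM against 7.66 CPM in astrocyte-like nuclei of the cervical segment). APOE was shared with astrocyte-like nuclei, where it stood at 156, 120 and 148 CPM in intact cord, above the microglia-like level in each segment, and at 358, 178, 361 and 365 CPM after injury, below it each time. Microglia-like nuclei held 21.6 to 26.3% of APOE UMIs in intact cord and 67.3 to 77.1% after injury, when they were also a larger part of the nuclei (37.8 to 50.7%, against 17.8 to 22.9%). Astrocyte-like nuclei were fewer after injury, with their numbers given below.

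ABCA1 was highest in astrocyte-like nuclei in every library. Its level in intact cord was 184, 154 and 161 CPM in astrocyte-like nuclei and 22.4, 18.3 and 24.0 CPM in oligodendrocyte-like nuclei. After injury the astrocyte-like class stood at 220, 192, 301 and 378 CPM and the oligodendrocyte-like class at 72.3, 64.1, 100.4 and 100.2 CPM, all above the intact range of their class. Different clusters held most of the oligodendrocyte-like class in the 2 sets of libraries. Clusters of 5474, 5280 and 1835 nuclei came mainly from intact cord and clusters of 5602 and 3797 nuclei mainly from injured cord, and the part of this shift in the values of the class was not tested. The microglia-like share of ABCA1 UMIs was 2.60 to 4.70% in intact cord and 36.9 to 63.8% after injury. LPL was likewise found in astrocyte-like nuclei, at 94.8 to 111 CPM in intact cord and 94.8, 66.6, 37.1 and 70.2 CPM at the 4 times. In that class the 14 dpi, 30 dpi and 6 mpi libraries were below the intact range while the 30 dpi microglia-like level was the highest of its class. ABCG1 was highest in OPC-like nuclei in every library, at 50.4 to 72.7 CPM. Its level in neuron-like nuclei was 29.4 to 30.8 CPM in intact and 27.3 to 38.1 CPM in injured libraries, on both sides of the intact range.

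FABP5 in astrocyte-like nuclei was highest at 7 dpi. It stood at 4.74, 8.35 and 3.83 CPM in intact cord, at 199.7 CPM at 7 dpi, and then at 71.2, 92.0 and 12.6 CPM. The astrocyte-like level was above the microglia-like level at 7, 14 and 30 dpi and below it at 6 mpi. At equal depth 16.8% (9.94 to 25.9) of 95 astrocyte-like nuclei held FABP5 at 7 dpi, against 0.205 to 0.763% in the 3 intact libraries and 2.75% of 109 nuclei at 6 mpi. The class held 2 clusters in changing parts, with 57 and 38 nuclei at 7 dpi, 93 and 159 at 14 dpi, 96 and 46 at 30 dpi, and 32 and 77 at 6 mpi, and the part of this shift in the values was not tested. SPP1 was also found in oligodendrocyte-like nuclei at 140.4 to 175 CPM in intact and 137 to 226 CPM in injured cord. APOC1 was also listed outside the microglia-like class after injury, at 3.85 to 11.3 CPM in oligodendrocyte-like and 4.36 to 8.87 CPM in neuron-like nuclei, where intact cord had 0.158 to 0.497 CPM. These levels stood highest in the 7 and 30 dpi libraries, where the microglia-like level was also highest. The part of free RNA in them was not tested.

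**Figure D2:**
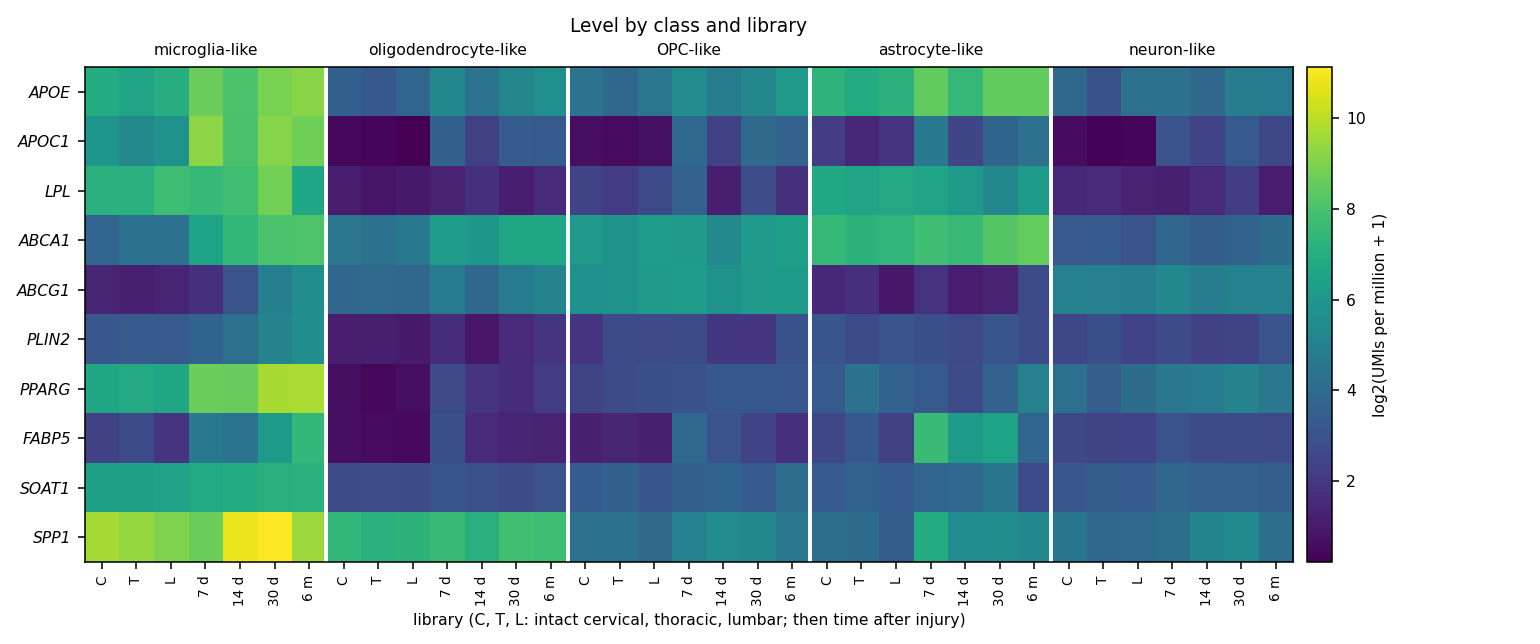
Level of each gene as log2(CPM + 1) in the 5 largest classes, with 1 column per library in the order intact cervical, thoracic and lumbar cord (C, T, L) and 7, 14, 30 days and 6 months after injury. APOC1, PPARG and SPP1 are brightest in the microglia-like columns, APOE, ABCA1 and LPL are shared with astrocyte-like nuclei, ABCG1 is brightest in OPC-like nuclei, and FABP5 has its astrocyte-like maximum at 7 days.

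Microglia-like nuclei fell into 8 clusters, most of which came mainly from 1 library, so a cluster may be a library and not a cell type. The largest (5532 nuclei, led by MRC1, FKBP5 and CX3CR1) and one of 680 nuclei led by CD163, NR4A genes, IL1B and CXCL8 came from intact cord. A cluster of 3431 nuclei held most of 7 dpi and one of 4705 most of 14 dpi. Clusters of 2457 and 1369 nuclei held 60.4% and 29.9% of the class at 30 dpi, and clusters of 1427 and 935 nuclei held 52.7% and 34.1% of it at 6 mpi. The clusters of 1369 and 1427 nuclei had GPNMB, a lysosomal glycoprotein of lipid-laden macrophages, among their 10 leading genes. Both had low microglia marker scores, 0.271 and 0.195 in that order, against 0.601 to 0.682 in the other microglia-like clusters. The GPNMB-led cluster of 6 mpi had an astrocyte marker score of 0.677 times its microglia score. It kept its name because 0 of its 10 leading genes were highest in astrocyte-like nuclei. The GPNMB-led cluster of 30 dpi had an endothelial marker score of 0.473 times its microglia score, and PPARG and APOC1 were among its leading genes. Both GPNMB-led clusters had the highest levels of 8 of the 10 genes.

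The difference within one library was large for the transporters and FABP5. At 6 mpi the GPNMB-led cluster (1209 nuclei) had 447 CPM of ABCA1 (424 to 470.0) and the cluster led by LILRB1 and C3 (783 nuclei) had 64.0 CPM (53.0 to 76.7). For ABCG1 the levels were 82.1 CPM (72.6 to 92.5) and 1.63 CPM (0.336 to 4.76), for FABP5 299.7 and 19.5 CPM, for PLIN2 73.6 and 14.1 CPM, and for PPARG 1322 and 267 CPM. APOE differed less, at 760 and 401 CPM. At 30 dpi the GPNMB-led cluster (1161 nuclei) had 454 CPM of ABCA1, 66.0 of ABCG1, 156 of FABP5 and 1629 of PPARG, and the larger cluster (2346 nuclei) 146, 5.42, 20.9 and 398 CPM. LPL did not follow this split, SPP1 differed by 1.06-fold at 30 dpi and by 1.79-fold at 6 mpi, and the 2 GPNMB-led clusters differed in both. At 14 dpi LPL was at 336 CPM (299.9 to 375) in the 152 nuclei of the cluster of 1369, at 101 CPM (69.4 to 143) in the 88 nuclei of the cluster of 1427, and at 223 CPM in the 4292 nuclei of the main cluster, between them. LPL stood at 420 CPM in the GPNMB-led cluster of 30 dpi and 497 CPM beside it, and at 74.8 and 97.1 CPM in the pair of 6 mpi clusters. Its highest level, 564 CPM, was in the intact cluster with IL1B and CXCL8, where in intact lumbar cord it reached 678 CPM against 122 CPM in the largest cluster. The 83 nuclei of the other GPNMB-led cluster at 30 dpi had 49.0 CPM (29.03 to 77.4) of LPL. SPP1 was at 1834 and 847 CPM in the GPNMB-led clusters of 1369 and 1427 nuclei at 14 dpi and at 1811 CPM in the main cluster. At 30 dpi the second of them had 438 CPM of SPP1. SPP1 stood at 2429 CPM in the GPNMB-led cluster of 30 dpi and 2284 CPM beside it, and at 763 and 426 CPM at 6 mpi. It was high in that intact cluster too (2016 CPM), in the 14 dpi cluster (1727 CPM) and in both 30 dpi clusters (2278 and 2378 CPM).

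**Figure D3:**
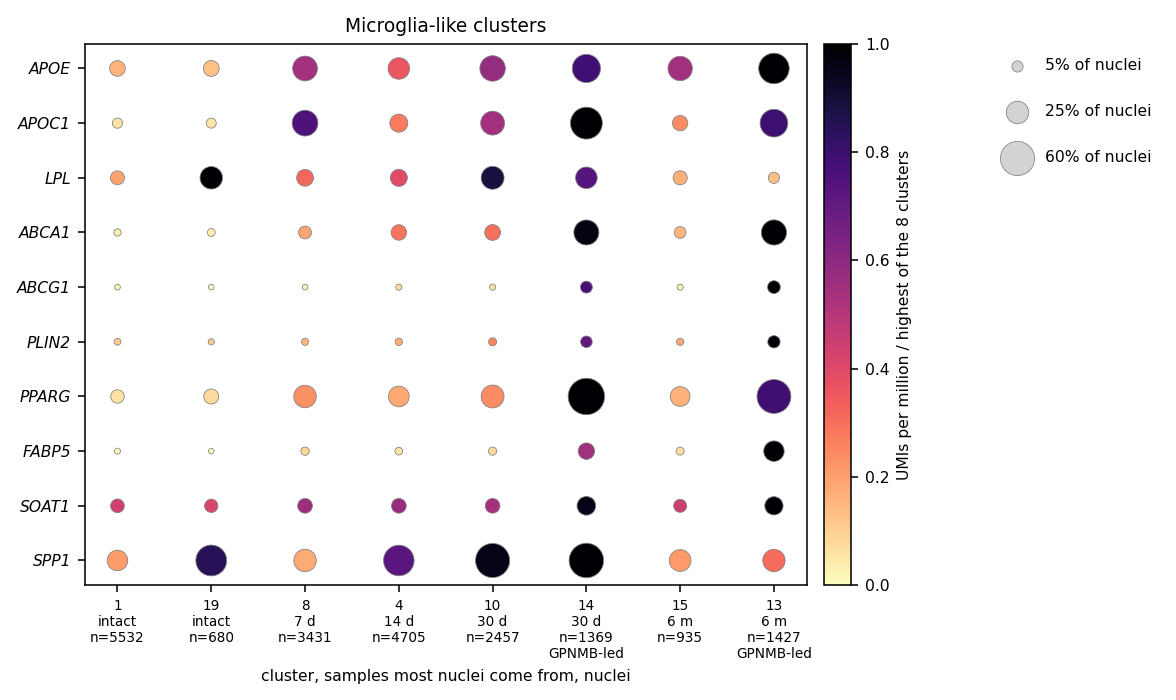
The 10 genes in the 8 microglia-like clusters, each labelled with the samples that gave most of its nuclei and its number of nuclei. Colour is CPM divided by the gene's highest cluster and dot area grows with the percent of nuclei with a UMI at 1000 UMIs per nucleus. The GPNMB-led clusters 13 and 14 are darkest for all genes except LPL and SPP1, whose darkest dots include the intact cluster 19 and cluster 10.

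Without the 2 GPNMB-led clusters, 5, 6, 9 and 5 genes were called higher at the 4 times, where 10.4%, 6.82%, 6.78% and 11.3% of the 13018 genes then tested were. At 14 dpi APOE (log2 ratio from 1.03 to 0.9965) and PLIN2 (from 1.05 to 0.76) then fell under the line of 1, within their counting intervals. At 6 mpi ABCG1 went from 4.93 to 0.84 and PLIN2 from 2.43 to 0.57, and LPL, at -0.79, was no longer called lower. Naming by the stricter rule for mixtures, which left the 6 mpi cluster unnamed, also left 5 at 6 mpi (background 11.7%). Both of these alternatives, and also the mixture rule of the main naming, were chosen after the clusters had been seen. In the cluster led by LILRB1 and C3, ABCG1 was at 1.10 times and SOAT1 at 0.911 times the level of the largest cluster of intact lumbar cord, while FABP5 was at 7.95 times, APOC1 at 3.51 times, ABCA1 at 3.23 times and APOE at 3.04 times.

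A split by GPNMB was also made in single nuclei at equal depth. GPNMB was among the leading genes of the clusters above and the nuclei are the same, so this is no separate support. Of 2295 microglia-like nuclei at 6 mpi, 1089 held a GPNMB UMI. PPARG was found in 58.1% (55.1 to 61.1) of them and in 24.96% (22.5 to 27.5) of the rest. ABCA1 was found in 31.4% (28.7 to 34.3) and 7.88% (6.42 to 9.54), FABP5 in 22.6% (20.1 to 25.2) and 4.06%, and ABCG1 in 7.44% and 1.08%. LPL went the other way, with 4.32% (3.19 to 5.70) and 8.71% (7.18 to 10.4). At 30 dpi, with 767 nuclei holding GPNMB, LPL was found in 18.5% and 25.5%, and 7 genes were more frequent beside GPNMB by intervals that did not overlap (background 7.34% of the 13397 genes tested other than GPNMB). Their number was 5 at 7 dpi with 140 such nuclei (2.99%), 8 at 14 dpi with 328 (5.49%) and 8 at 6 mpi (8.2%). LPL was less frequent by the same measure at 30 dpi and 6 mpi and no other gene of the 10 was at any time, where 1.83%, 3.63%, 5.17% and 6.74% of the genes tested were in time order. PPARG, ABCA1, APOC1, ABCG1 and FABP5 were among the more frequent genes at all 4 times, and SPP1 at none. The 2 sides come from the same libraries, and the intervals treat nuclei as independent.

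**Figure D4:**
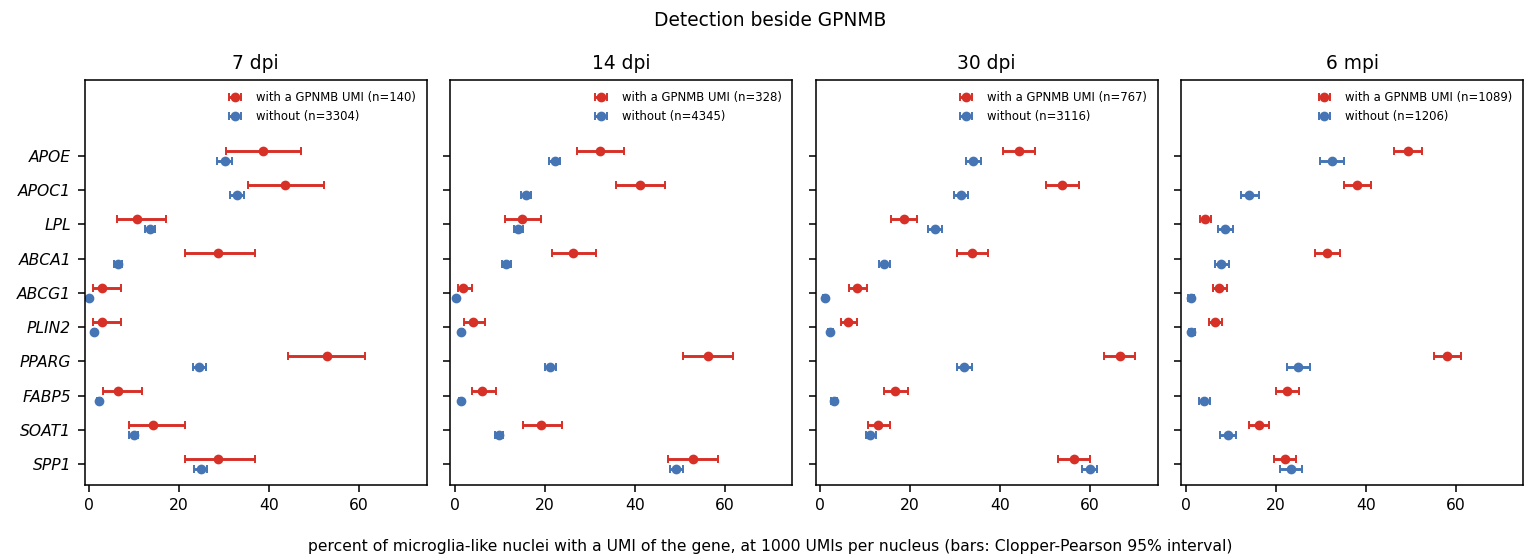
Percent of microglia-like nuclei with a UMI of each gene, after thinning to 1000 UMIs, among nuclei with (red) and without (blue) a GPNMB UMI in the 4 injured libraries. Bars are Clopper-Pearson 95% intervals, which do not overlap for PPARG and ABCA1 in all 4 panels and overlap for SPP1 in all 4.

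The mean number of the 10 genes with a UMI per microglia-like nucleus at equal depth was 0.665 to 0.728 in intact and 1.49 to 2.35 in injured libraries, where 8.76 to 21.9% of nuclei still held none. At equal depth 3.05%, 3.06% and 2.64% of microglia-like nuclei in intact cervical, thoracic and lumbar cord held UMIs of at least 3 of the 10 genes. After injury the share was, in time order, 19.05% (17.7 to 20.4), 19.3% (18.2 to 20.5), 42.8% (41.2 to 44.4) and 32.4% (30.5 to 34.4). In neuron-like nuclei it was at most 0.392%. Without thinning the microglia-like shares were 16.5 to 22.9% in intact and 59.8 to 89.1% in injured libraries, with 26.1 to 60.1% in the much deeper neuron-like nuclei. A higher share follows where each gene is found in more nuclei and does not show that the genes were found in the same nuclei. Over the 45 pairs of genes the phi coefficient between their detection was weak in every library, with medians of -0.00132 to 0.0116 in intact and 0.0122 to 0.0518 in injured libraries and a highest value of 0.215, in intact thoracic cord. These coefficients are over nuclei of 1 library at 1000 UMIs each and describe sparse counts.

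A list of 68 other genes set these values in context, of which 67 were found and 57 passed the filter on UMIs. They are called the other lipid genes here, although 7 of the 57 were osteopontin receptors and not lipid genes. The counts called higher were 12, 10, 18 and 24 of 57 at 7, 14, 30 dpi and 6 mpi, and those called lower 2, 3, 5 and 5. The receptors gave 1, 2, 3 and 2 of the higher calls and 0, 1, 1 and 2 of the lower ones. The median log2 ratio of the 57 was 0.37, 0.46, 0.39 and 0.68. As shares the genes called higher were 21.1%, 17.5%, 31.6% and 42.1%, beside 10.7%, 7.5%, 9.61% and 14.9% of all genes tested, and those called lower were 3.51%, 5.26%, 8.77% and 8.77%, beside 7.83%, 6.29%, 9.41% and 5.74%. Of the 57 genes, 7 (APOD, CD36, NR1H3, PPARGC1A, PLIN1, G0S2 and SOAT2) had fewer than 100 UMIs over the 3 intact libraries and could pass the filter only with those of the injured ones, so these shares are not support for the list. CD36, CD68, MSR1, GPNMB, G0S2, MGLL, SOAT2 and ITGA4 were called higher at all 4 times.

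Of the 9 uptake genes, 3, 3, 4 and 4 were called higher at the 4 times. The scavenger receptor MSR1 stood at 96.9 to 122 CPM in intact cord and at 263, 270.0, 764 and 419 CPM after injury. CD36, another scavenger receptor, was at 0.273 to 0.541 CPM in intact cord, with 2 UMIs in the lumbar segment, and at 3.98, 3.75, 14.0 and 3.46 CPM after injury. TREM2, a lipid-sensing receptor, had log2 ratios of 0.79, 0.85, 1.03 and 0.92 and passed the rule at 30 dpi alone. GPNMB had the largest ratios of the list at each time, 14.9-fold, 33.4-fold, 109-fold and 338-fold, from 4.50 CPM in intact lumbar cord, with 1.57 CPM in cervical and 19.8 CPM in thoracic cord. The acid lipase gene LIPA, called at 3 times, had log2 ratios of 1.11, 0.69, 1.62 and 1.01.

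Of the 9 nuclear receptor and regulator genes, NR1H3, which encodes the oxysterol receptor LXR alpha, was called higher at 7 dpi, 30 dpi and 6 mpi, at 3.59, 13.01 and 11.7 CPM against 1.36 to 2.52 CPM in intact cord. SREBF2, which drives cholesterol synthesis, was called lower at 14 dpi, 30 dpi and 6 mpi, with log2 ratios of -1.03, -1.43 and -1.47. RXRA and SREBF1 were not called at any time. Of the droplet genes, SOAT2, the other enzyme that esterifies cholesterol, stood at 0.901 to 2.18 CPM in intact cord and 4.56, 4.75, 17.6 and 68.2 CPM after injury. G0S2, an inhibitor of triglyceride lipase, had log2 ratios of 1.67, 2.42, 3.28 and 4.66, and MGLL, the monoacylglycerol lipase, 1.19, 1.55, 1.95 and 1.28. CH25H, which makes 25-hydroxycholesterol, was among the lowest at 7 dpi and 6 mpi (log2 ratios of -1.86 and -2.17). FABP7, a fatty acid binding protein of astrocytes, was called lower at 30 dpi alone, at 1.97 CPM against 5.59 CPM in intact lumbar cord.

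APOC2 and APOC4, apolipoproteins, had log2 ratios of 1.92 and 1.69 at 7 dpi, 0.83 and 0.62 at 14 dpi, 3.14 and 2.65 at 30 dpi and 2.95 and 1.32 at 6 mpi. Of the 4 injured libraries, 14 dpi was the lowest for both of them, and also for APOE and APOC1. Of the osteopontin receptors, CD44 stood at 26.0 to 42.4 CPM in intact cord and at 50.3, 136, 162 and 246 CPM after injury, and the integrin ITGA4 had log2 ratios of 2.71, 2.20, 3.86 and 1.67. ITGA9 was called lower, with log2 ratios of -1.64, -1.06 and -1.73, from 14 dpi on.

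**Figure D5:**
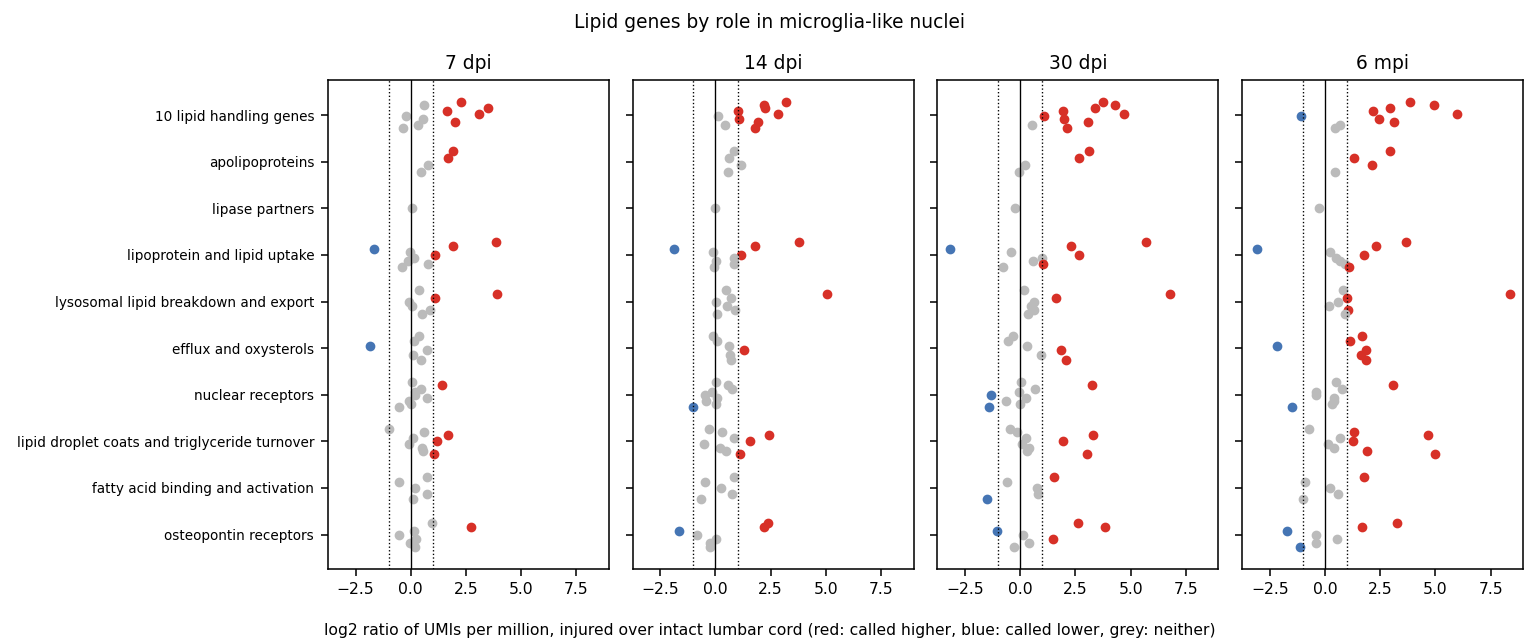
Log2 ratio of CPM in microglia-like nuclei, injured over intact lumbar cord, for the 10 genes and for 57 other genes (lipid genes and osteopontin receptors) grouped by role, at 4 times. Dotted lines mark the 2-fold rule, red points were called higher, blue points lower and grey points neither, and the top row holds more red points than any other role at 30 days.

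Over 35 values (5 classes in 7 libraries), the genes whose log2(CPM + 1) followed each of the 10 most closely by Pearson's r were found. They were ITGAX (0.97) and CLN3 (0.95) for APOC1, SLC37A2 (0.97) and PRKX (0.96) for LPL, AZIN2 (0.96) and PIK3CD (0.95) for PPARG, and ARHGAP25 (0.98) and SGPL1 (0.97) for SOAT1. TBC1D22A (0.96) and RNASEH2B (0.95) were closest to SPP1, CFB and NFKB2 (both 0.92) to APOE, and DENND4C and DNASE2 (both 0.91) to PLIN2. The likeness was weaker for FABP5 with VIM (0.90) and IER5L (0.88), for ABCG1 with YPEL4 (0.89) and SGK1 (0.86), and for ABCA1 with SORBS3 (0.88) and LCAT (0.86). None of the 10 was among the 2 closest to another. The 35 values share libraries and depth and are no independent samples.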

How the data were processed

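Nuclei of 7 libraries, 1 per group, were profiled by single-nucleus RNA-seq with a droplet 3′ kit. The deposited files hold UMI counts per gene and nucleus that the authors made with Cell Ranger 6.0.0, per the submitters' processing notes, on Mmul_10, with no normalisation. Total counts were 45079131 to 150987900 UMIs per library, and intervals cover counting error only.

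Of 69332 barcodes, 2248 were dropped by requiring more than 500 genes and 1000 UMIs, with mitochondrial UMIs below 10% and hemoglobin UMIs below 5%. Scrublet in scanpy 1.11.5 scored doublets in each library, and the top 5% were removed, which left 63730 nuclei. Each nucleus was scaled to 10000 UMIs on a log scale. Clusters came from 2000 variable genes without the 10 described genes, 30 components, 20 neighbours and Leiden clustering at resolution 1, and were named from markers of 11 classes. A cluster was left unnamed with fewer than 3 detected markers, with more markers of another class than of its own among its 10 leading genes, or with a median UMI count more than 3 times below that of its libraries and no own marker among them. It was also left unnamed as a mixture with a second class above 0.5 of its best score and at least 1 leading gene highest in that class, or above 0.3 and at least 5. The mixture rule was set after the clusters had been seen, and the stricter one is an alternative.

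Levels (CPM) are a gene's UMIs in a class of a library over all UMIs there, and their intervals are exact Poisson ones. Ratios have exact conditional binomial intervals. Shares of nuclei have Clopper-Pearson intervals at 95%, each nucleus thinned to 1000 UMIs. A gene was tested with at least 100 UMIs over the 7 libraries. It was called at 2-fold against intact lumbar cord (at least 3 counts) and outside all 3 intact segments, a rule of size and no statistical test. The named genes were the 10, every listed lipid gene called at all 4 times, the extremes of that list, and the 2 genes most alike to each of the 10. One result under this rule is not reported here. Other listed genes (APOC2, APOC4, CD44, ITGA9, NR1H3, SREBF1, SREBF2, RXRA, TREM2 and LIPA) were chosen after their values were seen. The members and lists were chosen with earlier results of these data known. Gene positions and upstream sequence came from RefSeq on Mmul_10, whose annotation was matched by name for 9 of the 10 genes. The alternatives changed the reference segment, doublets, clustering, naming, depth, scaling, filter and fold.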

Additional observations from a re-analysis of the deposited data

How the results depend on the processing

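No paired analysis was possible because each group had 1 library. Over 19 alternatives, 280 recomputed counts stayed within 1.5 times and 24 moved further. Some ratios of single genes changed sign. The log2 ratio of SPP1 at 6 mpi went from 0.44 to -0.00437 without the GPNMB-led clusters. Its 707 CPM at 6 mpi also lay below the 801 CPM of intact cervical cord. LPL at 7 dpi (185 CPM) lay below intact lumbar cord (212 CPM) but above cervical and thoracic cord (146 and 141 CPM). Of the ratios of single genes and shares, 523 stayed within their intervals and 257 moved, among them 24 of the 40 gene ratios against thoracic cord and 19 of 40 without the GPNMB-led clusters. In time order, the number of the 10 genes called higher ranged over 3 to 6, 4 to 8, 6 to 9 and 5 to 8, where the share of all genes tested ran from 3.52 to 19.4%, 2.46 to 13.4%, 3.79 to 15.5% and 4.52 to 27.3%, lowest at 4-fold and highest at 1.5-fold. The lower call of LPL at 6 mpi (1 gene) went to 0 against cervical cord, thoracic cord or the mean of the 3 segments, with nuclei or all barcodes named singly, at 4-fold, under the stricter mixture rule and without the GPNMB-led clusters. With all barcodes named singly, 5 genes instead of 8 were called higher at 14 dpi (background 6.79%). At 4-fold, 3 of the 10 were called at 7 dpi (background 3.52%) and 4 at 14 dpi (2.46%), and of the other lipid genes 3, 5 and 9 were higher at 7 dpi, 14 dpi and 6 mpi and 0, 0, 1 and 2 lower at the 4 times. At 1.5-fold, 20 and 22 of them were higher at 7 and 14 dpi and 8 lower at 6 mpi. Thinning gave 4 lower at 7 dpi, a minimum of 500 UMIs gave 3 lower at 30 dpi, and leaving out the GPNMB-led clusters gave 15 higher at 6 mpi instead of 24. The last, the stricter mixture rule and the mixture rule of the main naming were chosen after seeing the data. The causes were not tested. Of the 10 genes, the higher calls nearest the 2-fold line were APOE (2.04-fold) and PLIN2 (2.07-fold) at 14 dpi and LPL (2.11-fold) at 30 dpi. ABCG1, FABP5 and CD36 rested on 11, 20 and 2 UMIs in intact lumbar cord, which limits their ratios, and 95 astrocyte-like nuclei at 7 dpi limit that class.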

Other observations

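Nuclei left unnamed numbered 434 to 641 in the intact and 173 to 233 in the injured libraries, and different clusters held most of them. In intact lumbar cord 305 of 434 came from a cluster with a median of 1626 UMIs and 6 from one with GPNMB and CHIT1 among its leading genes, which gave 157 of 203 at 6 mpi. The part of this shift in the values that follow was not tested. Their PPARG level was 14.1, 8.89 and 9.43 CPM in intact cervical, thoracic and lumbar cord and 39.1, 92.9, 158 and 199 CPM at 7, 14, 30 dpi and 6 mpi. APOC1 stood at 2.85 to 4.40 CPM in the intact and at 175, 46.9, 119 and 103 CPM in the injured libraries. FABP5 was highest at 7 dpi there, at 62.6 CPM, as in astrocyte-like nuclei, with 2.33 to 3.77 CPM in intact cord. The unnamed cluster with GPNMB and CHIT1 had 515 nuclei, was led by GLDC and also by SOX6 and CCL3, and had oligodendrocyte markers scoring best. Another of 191 nuclei was led by FN1, with ITGA4 and PECAM1, and 71 of its nuclei came from 7 dpi.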
